A study of Mus musculus with 8 samples.

Results

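Eph receptors and their ephrin ligands were compared in the colonic epithelium of mice that carried 1 of 2 strains of Bacteroides thetaiotaomicron (B. theta). The genes chosen were 6 receptors (Ephb2, Ephb3, Ephb4, Ephb6, Epha1, and Epha2) and 4 ligands (Efnb1, Efnb2, Efna1, and Efna4). Every probe set that the array annotation gives to 1 of these genes alone was taken, which yielded 17 of 45037 probe sets, from 9 of the 10 genes (of 18193 genes with a probe set of their own). No probe set carried Ephb2 alone in this annotation, so Ephb2 was not analysed here. All mice were C57BL/6 WT males kept under specific pathogen-free conditions and treated with metronidazole and ciprofloxacin (SPF-Abx mice). The mice were colonized at an age of 8 wk and sampled 4 wk afterward, at 12 wk. In 4 of them the colonizing strain was BTΔMAFF (BTDMAFF in the sample names), in which both genes of the Mucus-Associated Functional Factor (MAFF) are deleted, and in the other 4 it was the parental strain BTWT. Living epithelial cells that carried EpCAM and lacked the leukocyte marker CD45 were sorted to 90 to 95% purity, and their amplified cDNA was hybridized to 1 Affymetrix array per mouse. The sort did not separate cells by crypt position, and 1 mutant strain was used. The comparison asks how these receptors and ligands, some of which place cells along the crypt, differ when the mucus factor of B. theta is absent.

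Eph receptors are receptor tyrosine kinases whose ligands, the ephrins, sit on the membrane of the neighboring cell. A receptor and an ephrin that meet across a cell border signal into both cells, and the usual outcome is repulsion, which keeps cells of different kinds apart. In the mouse intestine, Wnt signaling through β-catenin and TCF factors turns on EphB receptors at the base of the crypt and turns down B-type ephrins there. Differentiating cells show the opposite pattern toward the surface, so the opposed gradients sort cells by position. B-type ephrins span the membrane and can signal inward through their tails, and A-type ephrins are held by a lipid anchor.

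The deposited values are log2 expression values that the authors centred, probe set by probe set, on the median over all 8 arrays. A value of 0 is therefore the middle of the 8 mice for that probe set, and the values hold differences between mice but no level, so no probe set can be said to lie above or below background. All differences are given as BTΔMAFF minus BTWT, so a negative difference means a lower value in BTΔMAFF mice, whereas the methods of the study form the ratio the other way round, with BTWT on top. Tests were run on all 45037 probe sets with limma, and p-values were adjusted over all of them by the Benjamini-Hochberg method with a threshold of 0.05. Unadjusted p-values under 0.05 are also counted, and are named as such. No probe set of the array passed the adjusted threshold, whereas 2295 did at the unadjusted one (5.1% of all, with 2.86% higher and 2.24% lower in BTΔMAFF mice). The arrays BTΔMAFF replicate 4 and BTWT replicate 2 stood apart from the other 6 on the first principal component (29.5% of the variance).

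Among the 17 probe sets, 1 of Ephb3 was lower and 1 of Efnb1 was higher in BTΔMAFF mice at an unadjusted p under 0.05, and 15 did not reach it. These 2 are 11.8% of the 17 probe sets, against the 5.1% of the whole array. No Eph or ephrin probe set passed the adjusted threshold, with adjusted p from limma between 0.790 and 0.975. The median difference of the 17 probe sets was 0.056 on the log2 scale, beside -0.018 for all probe sets. Of the 17 differences, 11 were positive and 6 were negative. The plot of all 17 probe sets by mouse shows which of them separate the groups and which differ mainly between mice of the same group.

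**Figure D1:**
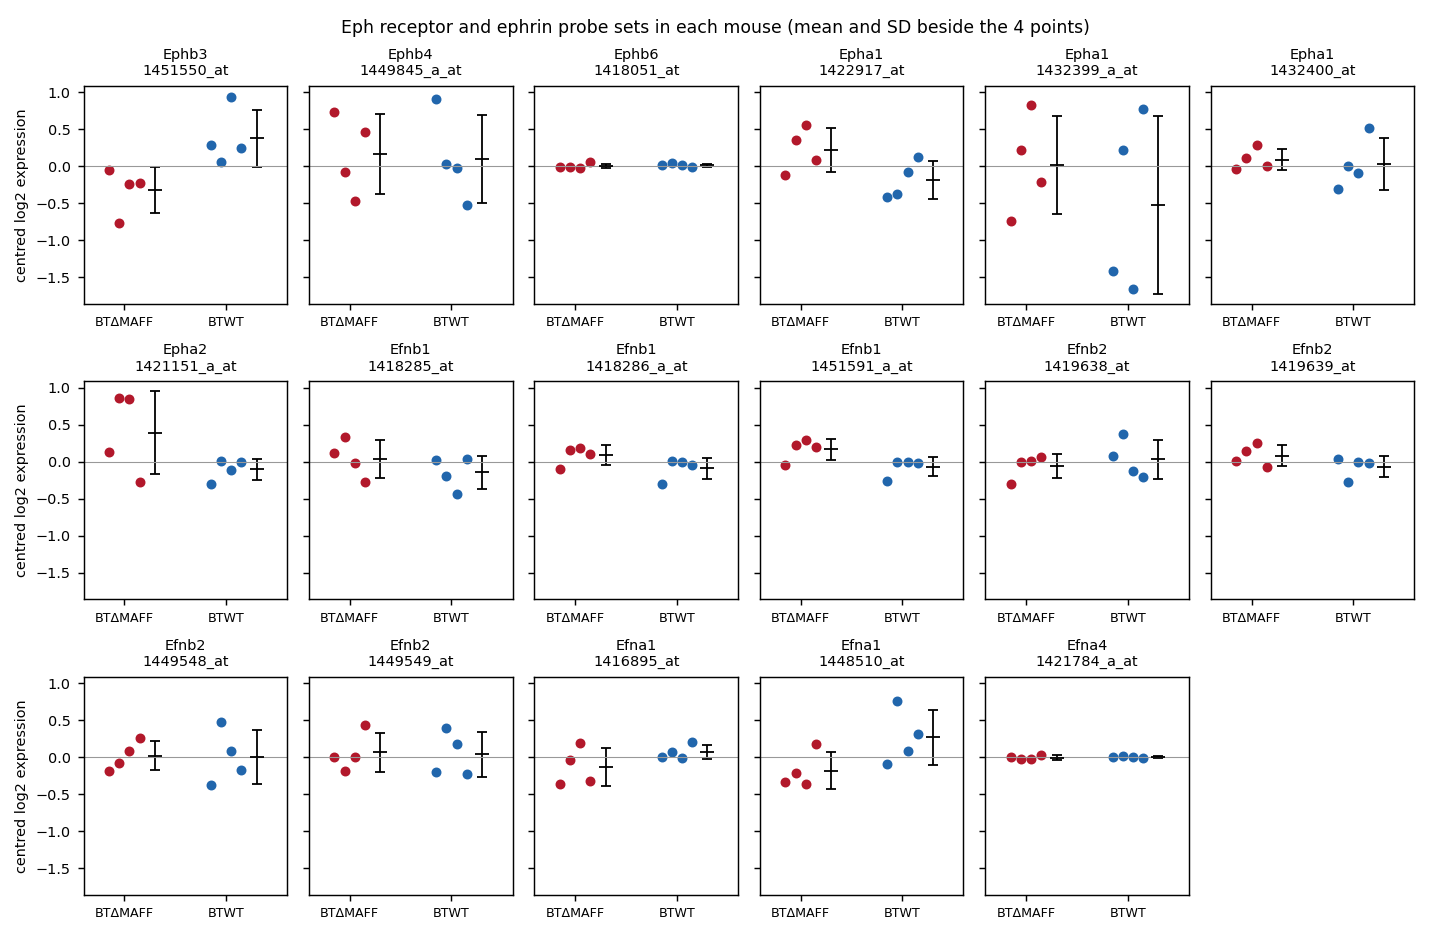
Centred log2 expression (y axis) of the 17 probe sets of 9 genes, 1 point a mouse, with a bar for the group mean and its SD (n = 4) to the right of the points, BTΔMAFF left and BTWT right. Ephb3 is the 1 probe set in which all 4 BTΔMAFF mice lie below all 4 BTWT mice, and Ephb6 and Efna4 hardly vary between mice.

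Ephb3, a receptor of the crypt base that in mouse small intestine keeps Paneth cells at their place, was lower in every BTΔMAFF mouse than in any BTWT mouse. Its single probe set (1451550_at) was at -0.05, -0.77, -0.24, and -0.23 in BTΔMAFF replicates 1 to 4, against 0.28, 0.05, 0.93, and 0.25 in BTWT replicates 1 to 4. The margin between the groups was narrow, since BTΔMAFF replicate 1 at -0.05 and BTWT replicate 2 at 0.05 lay next to each other, while BTΔMAFF replicate 2 and BTWT replicate 3 held the extremes. The mean was -0.32 ± 0.31 in BTΔMAFF and 0.38 ± 0.38 in BTWT mice (SD, n = 4 each), a difference of -0.70 (standard error 0.23, 95% interval -1.24 to -0.16). This is 1.63-fold lower in BTΔMAFF mice. Limma gave an unadjusted p of 0.0176 and an adjusted p of 0.790, and the two-sided exact permutation test gave p = 0.0286, the smallest that 4 mice against 4 allow. Groups that did not overlap were found in 1 of the 17 probe sets, against 2.83% of all probe sets in either direction and 1.27% with BTΔMAFF lower. Without BTWT replicate 3, the mouse with the highest value, the difference was -0.52, and without BTΔMAFF replicate 2, the mouse with the lowest value, it was -0.55. The unadjusted p of Ephb3 stayed under 0.05 whichever single array was left out, with p between 0.0143 and 0.0394 from limma, and with both arrays that stood apart left out (difference -0.84). In sorted cells, fewer Ephb3-expressing cells and less Ephb3 RNA per cell cannot be told apart.

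The ephrin of the opposite gradient, Efnb1, was measured by 3 probe sets, all of which had a higher mean in BTΔMAFF mice. In the probe set 1451591_a_at, Efnb1 was at -0.04, 0.22, 0.29, and 0.20 in BTΔMAFF replicates 1 to 4, against -0.26, 0.00, 0.00, and -0.02 in BTWT replicates 1 to 4. Of the BTΔMAFF mice, 3 lay above every BTWT mouse, and replicate 1 lay among them. The mean was 0.17 ± 0.14 in BTΔMAFF and -0.07 ± 0.13 in BTWT mice (SD, n = 4 each), a difference of 0.23 (standard error 0.09, 95% interval 0.02 to 0.45), or 1.18-fold. Limma gave an unadjusted p of 0.0361 and an adjusted p of 0.828. This call did not hold in every subset of mice: it was lost without BTΔMAFF replicate 2 (p = 0.0824), 3 (p = 0.0906), or 4 (p = 0.0780), without BTWT replicate 1 (p = 0.0789) or 4 (p = 0.0518), and with both arrays that stood apart left out (p = 0.0986), all unadjusted from limma, and the exact permutation test gave p = 0.114. The difference kept its sign each time and lay between 0.17 and 0.30 with 1 array left out.

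The second Efnb1 probe set, 1418286_a_at, followed the first closely. It was at -0.10, 0.16, 0.19, and 0.11 in BTΔMAFF mice, against -0.30, 0.01, -0.01, and -0.05 in BTWT mice, in the order of the replicates. In no mouse did these 2 probe sets of Efnb1 differ by more than 0.10. Its difference was 0.18 (95% interval -0.04 to 0.39, adjusted p = 0.828 from limma). The third, 1418285_at, had the same mean difference of 0.18 (95% interval -0.19 to 0.56) but another order of mice, with 0.12, 0.33, -0.02, and -0.28 in BTΔMAFF mice and 0.02, -0.19, -0.44, and 0.03 in BTWT mice. BTΔMAFF replicate 4 had a low value in the third probe set and a high one in the first, which is the mouse of the largest gap between them, 0.48. The difference of the third probe set was 0.085 without BTΔMAFF replicate 2, 0.087 without BTWT replicate 3, and 0.52 with array weights (unadjusted p = 0.00874 from limma). With the 3 probe sets of Efnb1 averaged in each mouse, an alternative chosen after the values were seen and fitted among the means of 18193 genes, the difference was 0.20 (standard error 0.07, unadjusted p = 0.0211 and adjusted p = 0.550 from limma).

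**Figure D2:**
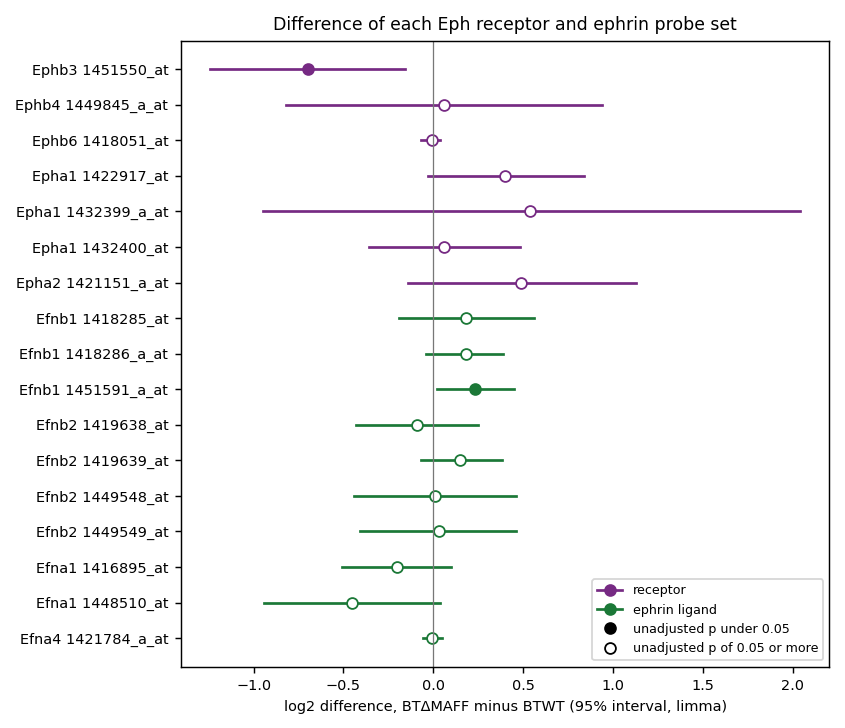
Difference between BTΔMAFF and BTWT mice in log2 units (x axis) for each probe set, with its 95% interval from limma; receptors in purple, ligands in green, filled points at an unadjusted p under 0.05. The intervals of Ephb3 (-1.24 to -0.16) and of 1 Efnb1 probe set (0.02 to 0.45) do not include 0, and those of the other 15 probe sets do.

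The gap between Ephb3 and Efnb1 or Efnb2 within each mouse sets the receptor beside the ephrins of the opposed gradient. The gap is given without a test because it combines genes chosen for their opposed gradients. Ephb3 alone already separated the groups. The Efnb1 probe set given first is the one of smallest unadjusted p, so a separation in this gap is no further support. How often gaps between other probe sets separate the groups is not given here. Relative to the 8-mouse median of each gene, Ephb3 minus Efnb1 (1451591_a_at) was -0.01, -0.99, -0.53, and -0.43 in BTΔMAFF replicates 1 to 4, against 0.53, 0.05, 0.93, and 0.27 in BTWT replicates 1 to 4. The gap was below 0 in all 4 BTΔMAFF mice and above 0 in all 4 BTWT mice, although BTΔMAFF replicate 1 and BTWT replicate 2 were close to 0. It averaged -0.49 ± 0.40 in BTΔMAFF and 0.45 ± 0.38 in BTWT mice (SD, n = 4 each). With the second Efnb1 probe set (1418286_a_at) the groups overlapped, since BTΔMAFF replicate 1 was at 0.05 and BTWT replicate 2 at 0.04, and with the third (1418285_at) they did not. Of the 3 Efnb1 probe sets, 1451591_a_at is the one with a call. Ephb3 minus Efnb2 overlapped between the groups in 3 of the 4 Efnb2 probe sets (mean differences of -0.61, -0.71, and -0.73) and did not in 1419639_at (-0.85). Of the difference of -0.94 between the groups in Ephb3 minus Efnb1 (1451591_a_at), Ephb3 itself made up -0.70.

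**Figure D3:**
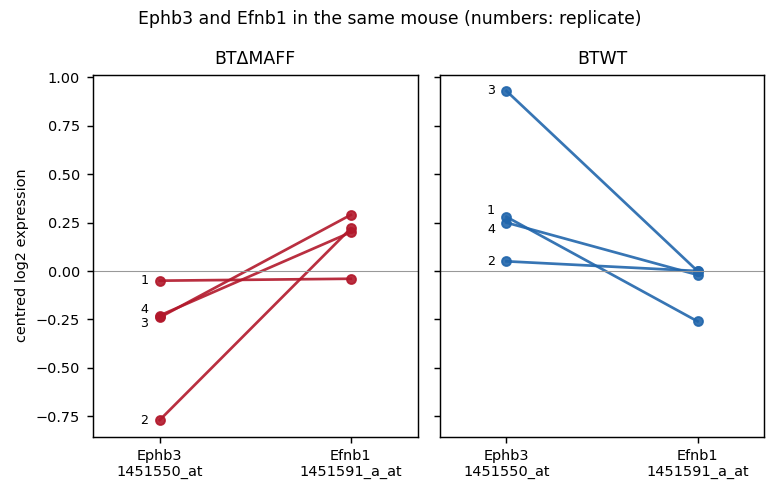
Centred log2 expression (y axis) of Ephb3 and of Efnb1 (1451591_a_at), joined within each mouse, with BTΔMAFF mice left, BTWT mice right, and replicate numbers beside the Ephb3 points. The lines rise in BTΔMAFF replicates 2, 3, and 4, are nearly flat in BTΔMAFF replicate 1 and BTWT replicate 2, and fall in BTWT replicates 1, 3, and 4.

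Because Ephb3 and Efnb1 are the 2 genes with a call at the unadjusted threshold, and in opposite directions, the 250 bases before the start that RefSeq's promoter table uses for each are shown. The build is GRCm38.p6, both are on the plus strand, and capitals mark the GC box GGGCGG. The window of Ephb3 is chr16:21204545-21204794 and that of Efnb1 is chrX:99135811-99136060.
Ephb3: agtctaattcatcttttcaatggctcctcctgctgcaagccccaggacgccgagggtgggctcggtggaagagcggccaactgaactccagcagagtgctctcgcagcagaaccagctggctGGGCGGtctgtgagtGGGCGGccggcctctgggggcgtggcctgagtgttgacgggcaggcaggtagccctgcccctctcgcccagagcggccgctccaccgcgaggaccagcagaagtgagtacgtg
Efnb1: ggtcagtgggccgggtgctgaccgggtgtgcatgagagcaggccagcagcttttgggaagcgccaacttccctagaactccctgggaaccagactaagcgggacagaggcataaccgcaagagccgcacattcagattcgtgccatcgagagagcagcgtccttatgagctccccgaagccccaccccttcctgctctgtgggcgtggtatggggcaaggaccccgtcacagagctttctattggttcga
The Ephb3 window holds 2 GC boxes and the Efnb1 window holds none, on either strand. The TCF/LEF core, searched on both strands as CTTTGNN with A or T at each N, is in neither. Over 32851 promoter windows of the same length, 14.8% hold a TCF/LEF core and 32.7% a GC box. The 10 genes have 11 such windows, since Efna1 has 2, and of these 2 hold a TCF/LEF core (Epha2 and Efna4) and 8 hold a GC box. The searched letters overlap in no position of the 2 windows shown, and these matches are descriptions of sequence only.

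The other B-type receptors showed no difference that stood out from the spread between mice. Ephb4, known as the receptor of veins that binds ephrin-B2, varied widely within both groups. It was at 0.73, -0.08, -0.47, and 0.46 in BTΔMAFF replicates 1 to 4, against 0.91, 0.03, -0.03, and -0.53 in BTWT replicates 1 to 4. Each group thus held high and low mice, and the difference was 0.06 (95% interval -0.82 to 0.94, adjusted p = 0.935 from limma). It changed sign without BTΔMAFF replicate 1 (-0.13) or 4 (-0.04), without BTWT replicate 4 (-0.15), and without both arrays that stood apart (-0.06). Ephb6, a receptor without kinase activity, spanned only -0.02 to 0.05 in BTΔMAFF and -0.01 to 0.04 in BTWT mice, with a difference of -0.01 (95% interval -0.07 to 0.04).

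The A-type receptors had positive differences in all 4 of their probe sets, and the groups overlapped in each. Epha2, a receptor of epithelial cell contacts that prefers ephrin-A1, was at 0.13, 0.86, 0.85, and -0.28 in BTΔMAFF replicates 1 to 4, against -0.30, 0.01, -0.11, and -0.01 in BTWT replicates 1 to 4. The BTΔMAFF mice were split, with replicates 2 and 3 far above all other mice and replicate 4 near the bottom, while the BTWT mice lay close together. The difference was 0.49 (standard error 0.27, 95% interval -0.14 to 1.13, adjusted p = 0.828 from limma). The value depended on single mice: the difference was 0.34 without BTΔMAFF replicate 2 (unadjusted p = 0.244 from limma) and 0.34 without replicate 3 (unadjusted p = 0.245 from limma). Without BTΔMAFF replicate 4 it was 0.72 (unadjusted p = 0.0124 from limma), and leaving out both arrays that stood apart gave 0.75 (unadjusted p = 0.0246), while in the other 7 fits with 1 array left out the unadjusted p was not under 0.05.

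Epha1, an epithelial Eph receptor, was measured by 3 probe sets. In 1422917_at it was at -0.12, 0.35, 0.56, and 0.08 in BTΔMAFF replicates 1 to 4, against -0.42, -0.38, -0.08, and 0.12 in BTWT replicates 1 to 4. Replicates 2 and 3 of BTΔMAFF were above every BTWT mouse, and replicates 1 and 4 were not. The difference was 0.40 (standard error 0.18, 95% interval -0.03 to 0.84, adjusted p = 0.828 from limma). Its unadjusted p from limma missed the threshold with all 8 arrays and passed it when BTΔMAFF replicate 1 or BTWT replicate 4 was left out. The probe set 1432399_a_at had the widest spread of the 17, with -1.42, 0.22, -1.66, and 0.77 in BTWT mice alone and -0.74, 0.22, 0.82, and -0.22 in BTΔMAFF mice. Its difference of 0.54 had a 95% interval of -0.95 to 2.04, and it differed from 1422917_at by up to 1.58 in the same mouse. It was 0.16 without BTWT replicate 3, 0.97 without BTWT replicate 4, and 1.31 with array weights (unadjusted p = 0.0477 from limma). In 1432400_at the difference was 0.06 (95% interval -0.36 to 0.48), and it turned negative without BTΔMAFF replicate 3 (-0.01) or BTWT replicate 1 (-0.06).

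Among the A-type ligands, Efna1 had a lower mean in BTΔMAFF mice in both probe sets. Efna1, which encodes ephrin-A1, was at -0.33, -0.21, -0.36, and 0.18 in BTΔMAFF replicates 1 to 4 in 1448510_at, against -0.09, 0.76, 0.09, and 0.31 in BTWT replicates 1 to 4. In 3 BTΔMAFF mice the value was below that of every BTWT mouse, and replicate 4 lay inside their range. The difference was -0.45 (standard error 0.21, 95% interval -0.94 to 0.04, adjusted p = 0.828 from limma). In the probe set 1416895_at, Efna1 was at -0.36, -0.04, 0.19, and -0.32 in BTΔMAFF mice and at 0.01, 0.07, -0.01, and 0.21 in BTWT mice, with a difference of -0.20 (95% interval -0.51 to 0.10). Here BTΔMAFF replicate 3 was high and replicate 4 low, the reverse of the first probe set. Averaged over both probe sets of Efna1 in each mouse, the alternative added later, the values were -0.35, -0.12, -0.09, and -0.07 in BTΔMAFF mice and -0.04, 0.42, 0.04, and 0.26 in BTWT mice. The groups of this average did not overlap, but the margin was narrow (-0.07 in BTΔMAFF replicate 4 and -0.04 in BTWT replicate 1). In each probe set alone the groups overlapped, and the share of all gene means without overlap is not given here. The difference of the average was -0.32 (standard error 0.11, unadjusted p = 0.0239 and adjusted p = 0.577 from limma). Averaged in the same way, Epha1 had a difference of 0.33 (unadjusted p = 0.306 from limma). The average of Efnb2 had a difference of 0.03 (unadjusted p = 0.811 from limma). The share of all gene means under the unadjusted threshold is not given here. Without BTWT replicate 2, the mouse with the highest Efna1 value, the difference of 1448510_at was -0.28.

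Epha2 and its ligand Efna1 thus had means of opposite sign. Within each mouse, Epha2 minus Efna1 (1416895_at) was 0.50, 0.91, 0.66, and 0.04 in BTΔMAFF replicates 1 to 4, against -0.31, -0.06, -0.10, and -0.22 in BTWT replicates 1 to 4. The groups did not overlap in this gap, which is a description without a test. In Epha2 alone and in Efna1 (1416895_at) alone they did overlap. How often gaps between other probe sets separate the groups is not given here. With the other Efna1 probe set (1448510_at) the groups overlapped in the gap, because BTΔMAFF replicate 4 was at -0.46 and the BTWT mice were between -0.75 and -0.20.

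Efna4, another A-type ligand, hardly varied: it spanned -0.03 to 0.03 in BTΔMAFF and -0.01 to 0.02 in BTWT mice, with a difference of -0.01 (95% interval -0.06 to 0.05). Efna4 and Ephb6 are the 2 of the 17 probe sets whose SD over the 8 arrays lies in the lowest 25% of all probe sets. Their small differences turned positive when each array was centred on its median (0.01 for Efna4 and 0.005 for Ephb6).

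Efnb2, the ephrin of arteries that also binds EphB receptors in the intestine, had 4 probe sets and no common direction. In 1419639_at it was at 0.01, 0.14, 0.25, and -0.07 in BTΔMAFF replicates 1 to 4, against 0.04, -0.28, -0.01, and -0.02 in BTWT replicates 1 to 4, a difference of 0.15 (95% interval -0.07 to 0.38). In 1419638_at the difference was -0.09 (95% interval -0.43 to 0.25). The remaining pair, 1449548_at and 1449549_at, had differences of 0.01 (95% interval -0.44 to 0.46) and 0.03 (95% interval -0.41 to 0.46), and in both of them BTWT replicate 2 was the highest of the BTWT mice, at 0.47 and 0.40. That mouse was the lowest of all 8 in 1419639_at, at -0.28. The probe sets 1449548_at and 1449549_at of Efnb2 differed by at most 0.18 in the same mouse, whereas 1419639_at differed from each of the others by 0.65 or more in BTWT replicate 2.

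**Figure D4:**
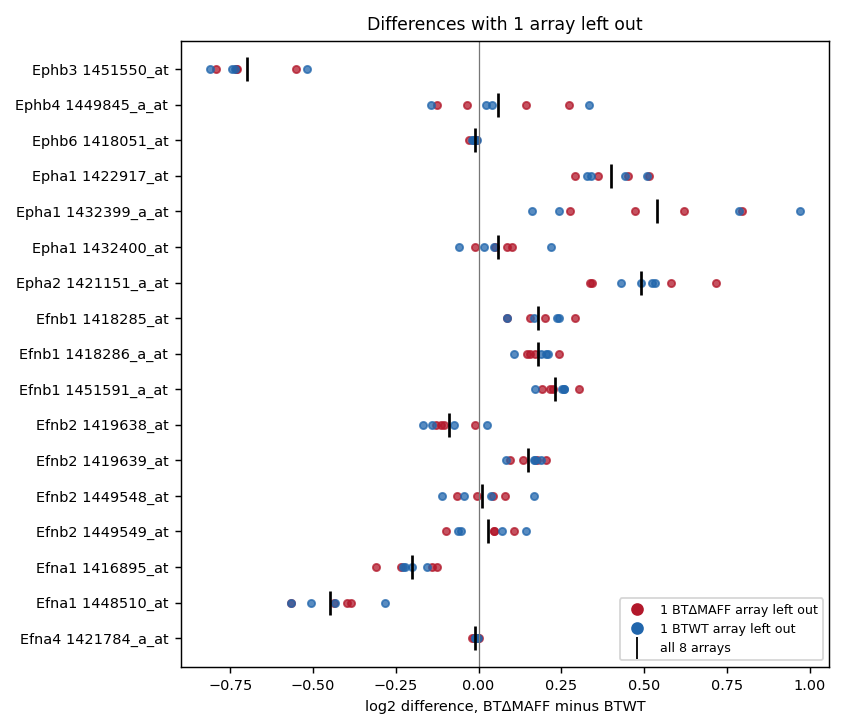
Difference between BTΔMAFF and BTWT mice in log2 units (x axis) for each probe set, with all 8 arrays (black bars) and with 1 array left out (points; red where a BTΔMAFF array and blue where a BTWT array was left out). The points of Ephb3 stay between -0.81 and -0.52 and those of Efnb1 above 0, and those of Ephb4, Efnb2 (3 of 4 probe sets), and Epha1 1432400_at fall on both sides of 0.

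The probe sets most like Ephb3 over the 8 arrays, by root mean square difference among 4370 probe sets of other genes with a similar SD, were those of Ccnb2 (1450920_at, 0.17), H2bc21 (1447854_s_at, 0.20), and Tor3a (1428660_s_at, 0.20). Ccnb2 encodes a B-type cyclin of mitosis, H2bc21 a histone H2B, and Tor3a a torsin-family ATPase. Their values averaged -0.31 ± 0.34, -0.33 ± 0.26, and -0.27 ± 0.31 in BTΔMAFF and 0.28 ± 0.35, 0.41 ± 0.35, and 0.35 ± 0.42 in BTWT mice (SD, n = 4 each). They were picked as the nearest of many, so the likeness is a description.

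The other 12 Eph and ephrin genes had 28 probe sets, of which 1 was higher and none was lower in BTΔMAFF mice at an unadjusted p under 0.05 (3.57% higher, against 2.86% of all probe sets). Of the 28, 12 had an SD in the lowest 25% of all probe sets, and their median difference was -0.02. The 1 probe set was that of Efna3 (1455344_at), which encodes ephrin-A3. Efna3 was at -0.20, 0.20, 0.35, and 0.69 in BTΔMAFF replicates 1 to 4, against -1.21, 0.25, -0.87, and -0.37 in BTWT replicates 1 to 4, and only BTWT replicate 2 lay among the BTΔMAFF mice. Its difference was 0.81 (standard error 0.34, 95% interval 0.01 to 1.62, adjusted p = 0.828 from limma), and the unadjusted p of 0.0488 was 0.0805 without BTΔMAFF replicate 2, 0.0964 without replicate 3, and 0.123 without replicate 4, and 0.112 without BTWT replicate 1, 0.112 without replicate 3, and 0.0682 without replicate 4. Efna1, Efna3, and Efna4 lie next to each other on chromosome 3 in the RefSeq annotation in that order, and their differences were negative, positive, and near 0. For Epha4, a receptor that binds ephrins of both types, the probe set 1439757_s_at had a difference of -0.22 (standard error 0.10, unadjusted p = 0.0514 from limma). All 5 of its probe sets were negative, the others at -0.60, -0.06, -0.03, and -0.03. Only 2 of the 28 probe sets were positive, but the list median of -0.02 was close to the -0.018 of all probe sets. How many of all probe sets were negative is not given here. The count of signs, in this list or in Epha4, is therefore a description and not evidence of a trend.

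Genes that carry Eph and ephrin signals inside the cell held both directions. Of 38 such genes, 34 were found with 107 probe sets, of which 7 were higher and 6 were lower in BTΔMAFF mice at an unadjusted p under 0.05 (6.54% and 5.61%, against 2.86% and 2.24% of all probe sets), and the median difference was -0.02. Nck1, an adaptor that links activated Eph receptors to the actin cytoskeleton, was lower at the unadjusted threshold in all 3 of its probe sets. In 1421487_a_at, Nck1 was at -0.11, -0.23, -0.14, and -0.43 in BTΔMAFF mice, against 0.19, 0.11, 0.25, and 0.21 in BTWT mice, so that the groups lay apart. The difference was -0.42 (standard error 0.07, unadjusted p = 8.23e-04 and adjusted p = 0.280 from limma). Its relative Nck2, an adaptor of ephrin-B tails, had 2 of 3 probe sets lower at this threshold, with differences of -0.27 (1416796_at) and -1.25 (1429481_at). Cbl, a ubiquitin ligase that takes part in the removal of receptor tyrosine kinases, was at 0.12, 0.16, 0.15, and 0.29 in BTΔMAFF mice in 1434829_at, against -0.21, -0.52, -0.26, and -0.12 in BTWT mice. The difference of Cbl was 0.46 (standard error 0.09, unadjusted p = 0.00120 and adjusted p = 0.327 from limma), and a second probe set of Cbl (1450457_at) also had higher values in BTΔMAFF mice, without overlap and with a difference of 0.50. The adjusted p of Nck1 and Cbl was under 0.05 with array weights (0.0140 and 0.0201 from limma), a fit in which 25.6% of all probe sets passed the unadjusted threshold. Rgs3, a regulator of G proteins with a form that binds ephrin-B tails, had 2 of 4 probe sets higher, at 0.61 (1425296_a_at) and 0.73 (1425701_a_at). The other 2 of Rgs3 hardly varied between mice and had differences of -0.01 and -0.03. Nck2, Rgs3, and the genes that follow were named after their values were seen. Abl1, a tyrosine kinase downstream of Eph receptors, had a difference of 0.40 in 1423999_at, while its other 2 probe sets were at 0.16 and -0.26. Yes1, a kinase of the Src family, had a difference of -0.45 in 1456843_at, and of its other 3 probe sets 2 were negative (-0.25 and -0.18) and 1 was positive (0.18). The remaining 2 of the 13 probe sets past this threshold belong to the exchange factors Itsn1 (1425899_a_at, 0.71) and Kalrn (1457899_at, 0.57), of which 4 of 9 and 4 of 8 probe sets were positive. Without both arrays that stood apart, 8 probe sets of this list were higher and 13 were lower, in a fit that called 3.61% of all probe sets higher and 6.93% lower.

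Genes of both ends of the crypt give the setting of the receptor and ligand differences. Of 46 probe sets from 19 of 20 genes of Wnt signaling and the crypt base, none was higher and 2 were lower in BTΔMAFF mice at an unadjusted p under 0.05 (4.35%, against 2.24% of all probe sets), with a median difference of -0.07. Both belong to Cd44, an adhesion receptor and Wnt target, whose 4 probe sets were all negative. Other genes of the list did not follow Cd44, and 11 of the 46 probe sets were positive. Among these were Rnf43 (0.56) and Tcf7l2 (0.42, 0.32, 0.19, and 0.11), while Lgr5 was at 0.12 and -0.02. Rnf43, Tcf7l2, and Lgr5 were named after their values were seen. In 1452483_a_at, Cd44 was at -0.49, 0.09, -0.79, and -0.53 in BTΔMAFF mice, against 0.08, 0.37, 0.36, and -0.08 in BTWT mice. The groups overlapped through BTΔMAFF replicate 2 alone, and the difference was -0.61 (standard error 0.20, unadjusted p = 0.0191 and adjusted p = 0.804 from limma). The unadjusted call of Cd44 was lost without BTΔMAFF replicate 4, BTWT replicate 2, or BTWT replicate 3 (p of 0.0503, 0.0505, and 0.0501 from limma), without both arrays that stood apart (0.114), and with array weights (0.0963). The 2 lower probe sets of the crypt base list numbered 0 without BTWT replicate 2 and 6 without BTΔMAFF replicate 1. Ctnnb1, which encodes β-catenin, had a difference of -0.11 in 1450008_a_at (standard error 0.05, unadjusted p = 0.0650 from limma), and the other 2 of its 3 probe sets had the opposite sign.

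Of 37 probe sets from 20 genes of surface colonocytes, 8 were higher and 1 was lower in BTΔMAFF mice at an unadjusted p under 0.05 (21.6% and 2.70%, against 2.86% and 2.24%), and the median difference was 0.10. The higher ones come from 6 genes and the lower one from Ceacam20, which is named here after its value was seen. Several of the 8 are of the same gene, Slc26a3 (1453151_at, 1427547_a_at, and 1429467_s_at). Positive differences numbered 26 of the 37. Other surface genes, also named after their values were seen, were not higher: Aqp8 was at -0.43, Car4 at 0 and 0.01, and Lypd8 at 0.02. Slc26a3, the chloride-bicarbonate exchanger of the colonic surface, was at 0.15, 0.32, 0.35, and 0.10 in BTΔMAFF mice in 1453151_at, against -0.34, -0.20, -0.10, and -0.34 in BTWT mice. Every BTΔMAFF mouse was above every BTWT mouse, and the difference was 0.48 (standard error 0.08, unadjusted p = 5.75e-04 and adjusted p = 0.243 from limma). Klf4, a transcription factor of postmitotic epithelium, had a smaller difference of 0.17 (1417394_at, standard error 0.03, adjusted p = 0.336 from limma), and its groups did not overlap either. With array weights the adjusted p was 0.0430 for Slc26a3 and 0.0432 for Klf4 from limma. Leaving out both arrays that stood apart gave 13 higher probe sets of this list and none lower, against 3.61% and 6.93% of all probe sets in that fit.

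**Figure D5:**
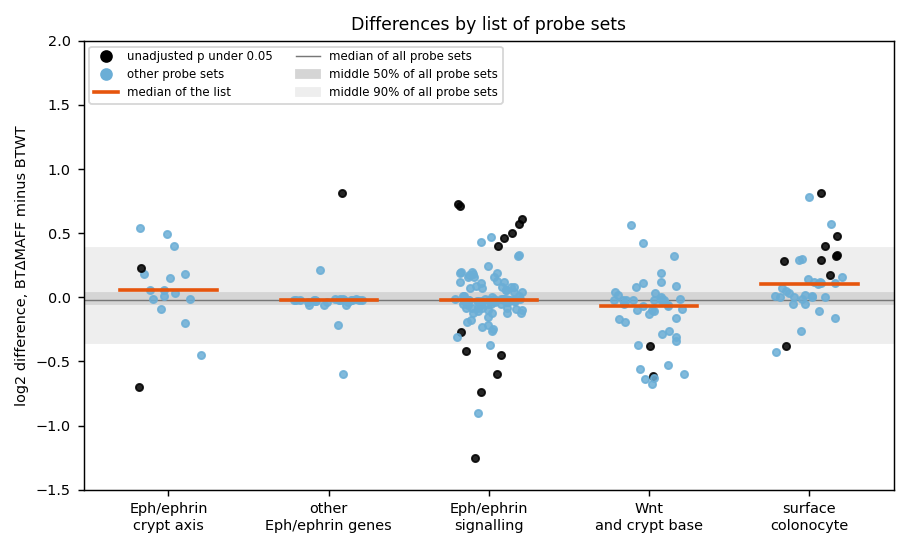
Difference between BTΔMAFF and BTWT mice in log2 units (y axis) of each probe set in 5 lists (points, black at an unadjusted p under 0.05), with the median of each list and grey bands for all 45037 probe sets. The surface colonocyte list has its median at 0.10 with 8 higher probe sets, the Wnt and crypt base list has its median at -0.07 with 2 lower ones, and the median of the other Eph and ephrin genes (-0.02) lies on that of all probe sets, with Efna3 (0.81) and Epha4 (-0.60) as the points farthest from it.

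Markers of the sorted cells and of others they could contain are given because Ephb4, Efnb2, and Epha2 are also known from blood vessels. The mean of the 20 probe sets of 12 endothelial genes was between -0.03 and 0.07 in BTΔMAFF and between -0.03 and 0.06 in BTWT mice, with none past the unadjusted threshold, and 11 of the 20 had an SD in the lowest 25% of all probe sets. Its 2 genes of smallest p, Vwf and Flt1, each had a difference of -0.04. Leukocyte probe sets (19 from 11 of 12 genes) and glial ones (12 from 5 of 6 genes) also held none past that threshold. Leukocyte means were between -0.03 and 0.07 in BTΔMAFF and between -0.03 and 0.17 in BTWT mice, and glial means between -0.04 and 0.06 and between -0.01 and 0.06 in the same order. The smallest p among them were those of Coro1a (-0.09) and Cd52 (0.28) and of Uchl1 (-0.03) and Gfap (-0.02), where the difference of Cd52 rested on BTΔMAFF replicate 1 (1.02) and was 0.027 without it, while Ptprc, which encodes CD45, had differences of 0.01 and -0.02 in its 2 probe sets. Stromal genes were less even: of 26 probe sets 1, that of Pdgfrb (1436970_a_at), was lower with a difference of -1.16, Col3a1 had a difference of 1.14 (1427883_a_at, unadjusted p = 0.0523 from limma), and the list mean was between -0.05 and 0.28 in BTΔMAFF and between -0.18 and 0.12 in BTWT mice. The other probe set of each gene did not show this, at 0 for Pdgfrb (1417148_at) and -0.02 for Col3a1 (1427884_at). Epithelial genes had 3 of 12 probe sets higher in BTΔMAFF mice and none lower (25% higher, against 2.86% of all probe sets), including Vil1 (0.40), whose probe set is also counted among the 8 of surface colonocytes, and Krt19 (0.22). The Krt19 call was lost without both arrays that stood apart (unadjusted p = 0.0912 from limma), with array weights (0.0533), and without BTΔMAFF replicate 1 or 3 or BTWT replicate 2, 3, or 4. The mean of the epithelial list was between 0.02 and 0.07 in BTΔMAFF and between -0.09 and 0.00 in BTWT mice. The groups thus lay apart by a narrow margin, and 10 of the 12 epithelial probe sets had positive differences. The 2 probe sets of Epcam had differences of 0.04 and -0.10. The part of these markers in the Eph and ephrin differences was not tested. Because the values are centred, whether a marker was present at all cannot be read from them.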

How the data were processed

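The deposited table holds log2 values of 45101 probe sets on 8 Affymetrix mouse genome arrays, and the authors had subtracted the median of the 8 arrays from each probe set (this held for all 45101 within 1e-06). Affymetrix Expression Console is named in the submitters' processing notes and GeneSpring in the methods. The steps before centring (summarization, background, and normalization) were not given in the sources used here. Control probe sets (64) were left out. Of the other 45037, 34945 have 1 gene in the array annotation (18193 symbols), 932 have more than 1 and went unnamed, and 9160 have no gene. BTΔMAFF was compared with BTWT in limma 3.58.1 under R 4.3.3 (lmFit and eBayes, no covariate), with Benjamini-Hochberg adjustment over all 45037. The fit was tested on simulated data. A two-sided exact permutation test was also run on each Eph and ephrin probe set. Precision is limited by the number of arrays.

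The genes and the lists were chosen with earlier results of these data known. All probe sets of the chosen genes were described, and for each other list the 2 genes of smallest unadjusted p were named, with Epcam and Ptprc; genes outside this rule are said to be so. A list of genes similar to Ephb2, planned with that of Ephb3, could not be made without a probe set of Ephb2. Sequences are from RefSeq tables of GRCm38.p6, which held a promoter for all 10 genes. Alternatives were quantile normalization, centring each array, array weights, a robust prior, a filter on SD, the replicate number as a block, the methods' unpaired test, leaving out arrays, and, added after the data were seen, gene means.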

Additional observations from a re-analysis of the deposited data

Results flagged for a closer look

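In 34 groups of 4 mice (17 probe sets, both groups), 2 held a mouse far from the other 3 of its group, by a gap past Dixon's 95% critical value. Chance gives about 1 such group in 20. Ephb6 was at 0.05 in BTΔMAFF replicate 4, with the next mouse of that group at -0.01, a gap of 0.937 of a very small range. The median of all probe sets was 0.041 on the array of that mouse, against -0.014, -0.013, and -0.03 in BTΔMAFF replicates 1 to 3. Gfap and Uchl1, other genes of similarly low spread, were also at 0.05 in that mouse. Efnb1 (1451591_a_at) was at -0.26 in BTWT replicate 1, with the next BTWT mouse at -0.02, a gap of 0.935 of the range, and without that mouse the difference of Efnb1 was 0.171.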

How the results depend on the processing

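The difference of Ephb3 stayed negative with an unadjusted p under 0.05 in every alternative run, from -1.23 with array weights to -0.52, with adjusted p between 0.0757 and 0.994. Over the Eph and ephrin probe sets and all alternatives, 247 differences kept their sign and their side of the unadjusted threshold, 19 passed it newly, 8 lost it, and 22 changed sign. The sign changes outside left-out replicates were those of Ephb6 (0.004) and Efna4 (0.014) with quantile normalization, of Ephb6 (0.005) and Efna4 (0.009) with each array centred, of Ephb4 (-0.036), Efnb2 (0.014 in 1419638_at, -0.052 in 1449548_at, and -0.174 in 1449549_at), and Ptprc (-0.013) with array weights, and of Ephb4 (-0.057) and Ptprc (-0.005) without both arrays that stood apart. With 1 replicate left out, the difference ranged from -0.145 to 0.335 for Ephb4, from -0.058 to 0.22 for Epha1 1432400_at, from -0.169 to 0.025, -0.111 to 0.169, and -0.099 to 0.144 for Efnb2 1419638_at, 1449548_at, and 1449549_at, from -0.226 to 0.083 for Epcam 1447899_x_at, and from -0.013 to 0.023 for Ptprc 1422124_a_at. The cause of these changes was not tested.

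Probe sets past the adjusted threshold over the whole array numbered 0 in the fit reported, 1 with each array centred, 510 with array weights, 2 without the lowest 25% of SD, 2 without both arrays that stood apart, and 0 to 6 with 1 replicate left out (6 without BTΔMAFF replicate 4). None of them was a probe set of the 9 genes described, but with array weights they included Nck1 1421487_a_at, Cbl 1434829_at, Slc26a3 1453151_at, and Klf4 1417394_at. At the unadjusted threshold, 9.11% of all probe sets were higher and 16.5% lower with array weights, 3.61% and 6.93% without both arrays that stood apart, and 3.13% and 2.97% with the replicate block. The Eph and ephrin probe sets higher in BTΔMAFF mice at the unadjusted threshold numbered 1 in the fit reported, 6 with array weights, 2 with the replicate block, 0 with the methods' unpaired test, and 0 to 3 with 1 replicate left out. Those lower numbered 1 in the fit reported, 2 with array weights, 2 with the replicate block, 2 without both arrays that stood apart, and 1 to 2 with 1 replicate left out. With array weights, which ran from 0.12 to 4.68, the higher and lower counts at that threshold were 18 and 20 among signaling genes, 14 and 2 among surface genes, 1 and 9 among crypt base genes, and 2 and 6 among the other Eph and ephrin genes.

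The labels do not say whether a shared replicate number marks a pairing of mice. Deviations of mice with the same number had correlations of 0.39, -0.04, 0.03, and -0.27, with 2 of 8 arrays closest to their own number. So few pairs show no common deviation but cannot exclude a pairing. With the replicate number as a block, the unadjusted p was 0.0106 for Ephb3 and 0.00229 for Efnb1 1451591_a_at. Centring left no level, so no limit from signal over background can be given, and the precision of each value rests on 4 mice a group.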
